A study of Mus musculus with 6 samples.

Results

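Integrins are the receptors by which cells hold on to the matrix and to each other. The set described here holds 36 genes chosen by name: 17 integrin α chains, 8 integrin β chains, 4 secreted ligands (*Spp1*, *Fn1*, *Vtn* and *Tnc*) and 7 linker genes that couple integrins to the cytoskeleton (*Ilk*, *Fermt1*, *Fermt2*, *Fermt3*, *Tln1*, *Tln2* and *Ptk2*). They are 36 of the 56748 genes in the deposited tables, and the rule that names them uses no measured value, though the set was proposed with earlier results of these data known. RNA of the uterus was sequenced in 3 control and 3 *Gp130* ecKO samples, taken at 1600 h on day 4 of pregnancy, shortly before the embryo attaches. The females were of the C57BL/6 strain by the labels and of the C57BL/6J background by the methods. The *Gp130* ecKO females were sexually mature *Ltf* iCre/+; *Gp130* flox/flox mice, in which iCre driven by the *Ltf* locus acts in the uterine epithelium and not in stroma or muscle. *Ltf* is also active in some neutrophils and macrophages, so that recombination in these cells is possible. The control females were *Ltf* +/+; *Gp130* flox/flox or wildtype according to the methods, and the labels call them WT, so that the genotype of each control uterus is not given. The labels name the tissue as uterus and the series text as endometrium. The comparison asks what loss of *Gp130*, the shared receptor of the LIF cytokine family, from the epithelium changes in the uterus, here for the genes of adhesion.

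An integrin is a pair of 1 α chain and 1 β chain, and the pair decides which ligand is bound. Pairs that contain αv, and the pair α5β1, read the short peptide arginine-glycine-aspartate (RGD) in ligands such as osteopontin, fibronectin and vitronectin, while other pairs bind laminin, collagen or counter-receptors on leukocytes. Inside the cell, talins and kindlins bind the β chain tail and switch the pair to its active state. In the uterus, integrins of the luminal epithelium and the osteopontin that bridges them to the embryo have long been studied as adhesion molecules of implantation.

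The ligands are shown first by the RGD peptides in their coding sequence. The lines give the codons of the RGD peptide in capitals with 12 bases on either side, 5′ to 3′ on the coding strand, from the canonical transcript of each gene in the GRCm39 genome. They were chosen because they are the RGD matches of the ligands in the set and of the pathway ligands *Npnt* and *Tgfb1* described further on. A match gives the peptide and not whether an integrin reads it.
*Spp1* (chr5:104587347-104587355, + strand, arginine 144): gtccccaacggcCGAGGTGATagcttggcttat
*Fn1* (chr1:71645905-71645913, − strand, arginine 1614): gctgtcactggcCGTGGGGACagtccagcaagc
*Fn1* (chr1:71636602-71636610, − strand, arginine 2181): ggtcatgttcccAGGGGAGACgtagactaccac
*Vtn* (chr11:78390532-78390540, + strand, arginine 64): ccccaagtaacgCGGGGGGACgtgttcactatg
*Npnt* (chr3:132610426-132610434, − strand, arginine 382): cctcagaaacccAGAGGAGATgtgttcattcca
*Tgfb1* (chr7:25396567-25396575, + strand, arginine 244): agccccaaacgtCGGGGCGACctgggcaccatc
The codons differ between the genes while the peptide is the same. The canonical mouse *Tnc* transcript, coding for 2019 residues, held no RGD.

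The deposited expected counts summed to 13960748 in control 3 and to between 22930513 and 25906443 in the other uteri. A multidimensional scaling was based on the genes that differed most within each pair of uteri. In it control 2 lay at 0.03 on the first dimension, between the other controls (2.08 and 2.09) and the *Gp130* ecKO uteri (−1.47 to −1.32). *Il6st*, the gene of GP130, had a CPM of 452 to 678 in control and 349.8 to 388 in *Gp130* ecKO, without overlap. CPM is the count relative to the library size after TMM scaling in edgeR. Fold changes are *Gp130* ecKO against control on the log2 scale, with p-values from edgeR's quasi-likelihood test adjusted over all 16605 genes tested, and their median over these genes was −0.05. A gene was called at a false discovery rate under 0.05 and more than 2-fold change. The uteri are numbered in the labels without a statement that each is a separate animal, so that p-values measure the spread between these samples.

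No member of the integrin set was called in this test, in which 26 of 16605 genes (0.157%) were called. Of the 36 members 35 could be tested, since *Itga10* (0.12 to 3.40 CPM) did not pass the filter on low counts. At an unadjusted p under 0.05 stood 3 members that were higher in *Gp130* ecKO (*Itgb6*, *Fermt1* and *Itgb5*), where 12.1% of all tested genes did. In the other direction stood 7 members (*Itga1*, *Itga5*, *Itga7*, *Itgb3*, *Spp1*, *Tnc* and *Fermt2*), where 12.9% of all genes did. The 3 control and 3 *Gp130* ecKO values did not overlap for 12 tested members, 3 of them higher (8.57% of the 35, against 15.7% of all tested genes) and 9 lower (25.7%, against 15.6%). In TPM, the deposited level per length, 5 members were higher without overlap (16.7% of all tested genes were) and 6 lower (12.1%), since *Itga2b* and *Ilk* were separate only on that scale and *Itgb3*, *Tln1* and *Ptk2* only in CPM. The median log2 fold change of the 35 members was −0.10. The exact test of edgeR, which called 7.46% of all genes, called *Itgb6*, *Itgb5* and *Fermt1*. DESeq2, which called 9.69%, called the same 3 members, and the likelihood ratio test of edgeR, which called 7.93%, called these and *Tnc*. At a false discovery rate under 0.1 without a fold threshold, met by 6.47% of all genes, stood *Itgb6* and *Fermt1*. With control 2 left out, edgeR's quasi-likelihood test called 5.20% of all genes, and *Itgb6* and *Fermt1* among the members. Of the cell type markers, 4 of 8 epithelial genes were higher in *Gp130* ecKO without overlap, and 3 of 6 stromal and 4 of 6 endothelial genes were lower, with the values given after those of the members. In RNA of mixed tissue, fewer cells of a type and less RNA per cell cannot be told apart.

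**Figure D1:**
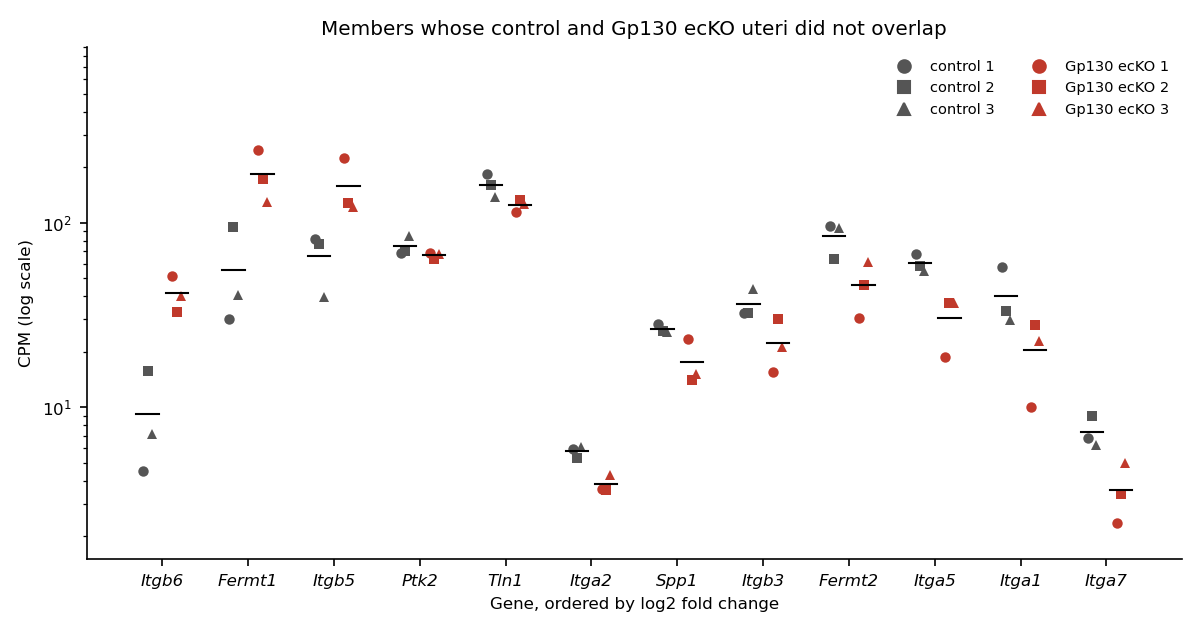
CPM (log scale) of the 12 tested members whose control (grey) and *Gp130* ecKO (red) uteri did not overlap, ordered by log2 fold change. Each point is 1 uterus, the marker shape gives the uterus number, and the line is the mean of 3. *Itgb6*, *Fermt1* and *Itgb5* lie higher in *Gp130* ecKO and the other 9 genes lower, with *Ptk2* nearly touching (68.9 in control 1 and 68.6 in *Gp130* ecKO 1).

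The promoters of the 3 members that were higher without overlap are printed from 250 bases before to 50 after the start of the canonical transcript (GRCm39, 5′ to 3′ on the strand of the gene). The 4 motifs below were searched on both strands and are in capitals where found: TTCNNNGAA (the STAT motif), the palindromic estrogen response element, CAGGTG (the E-box of the Snail family, CACCTG on the other strand) and TGANTCA (the AP-1 motif). Matches of any of the 4 may overlap.
*Itgb6* (chr2:60504006-60504305, − strand): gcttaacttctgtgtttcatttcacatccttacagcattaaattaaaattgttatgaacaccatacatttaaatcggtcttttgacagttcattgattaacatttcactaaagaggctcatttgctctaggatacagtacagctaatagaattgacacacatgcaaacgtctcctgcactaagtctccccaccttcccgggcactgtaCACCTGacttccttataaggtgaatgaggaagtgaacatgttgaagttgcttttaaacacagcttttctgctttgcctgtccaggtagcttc
*Itgb5* (chr16:33649738-33650037, + strand): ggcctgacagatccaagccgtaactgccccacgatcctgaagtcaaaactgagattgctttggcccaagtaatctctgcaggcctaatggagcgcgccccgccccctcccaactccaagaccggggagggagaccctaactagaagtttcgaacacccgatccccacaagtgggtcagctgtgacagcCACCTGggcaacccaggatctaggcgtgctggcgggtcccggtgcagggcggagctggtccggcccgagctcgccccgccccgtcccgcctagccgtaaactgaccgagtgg
*Fermt1* (chr2:132787937-132788236, − strand): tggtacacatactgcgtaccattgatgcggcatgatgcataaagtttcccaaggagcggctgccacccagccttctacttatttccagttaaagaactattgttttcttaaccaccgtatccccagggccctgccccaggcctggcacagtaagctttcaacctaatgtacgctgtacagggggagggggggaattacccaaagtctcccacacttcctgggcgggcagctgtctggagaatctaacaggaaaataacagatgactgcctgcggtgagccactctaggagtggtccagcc
The only capitals are 1 E-box each in *Itgb6* (42 bases before the start) and *Itgb5* (62 bases before), and *Fermt1* held none of the 4 motifs. Over the set, 11 of 36 promoters held the E-box, against 20.6% of 21617 promoters of protein-coding genes. The STAT motif stood in 3 of 36 against 8.85%, the AP-1 motif in 2 of 36 against 7.17%, and the estrogen response element in 0 of 36 against 0.0509%. A match gives the letters in this window and no binding.

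Among the ligands, *Spp1*, which encodes the secreted phosphoprotein osteopontin, was lower in every *Gp130* ecKO uterus. Controls 1, 2 and 3 had 28.3, 25.8 and 25.5 CPM, and *Gp130* ecKO 1, 2 and 3 had 23.3, 14.0 and 15.2, an order kept for all values that follow. The controls lay close together, and *Gp130* ecKO 1 lay nearest to them. Its log2 fold change of −0.60 (standard error 0.24) had an unadjusted p of 0.0413 and an adjusted p of 0.184 in edgeR's quasi-likelihood test. *Fn1*, the gene of fibronectin and the most abundant ligand of the set, was at 216, 375 and 343 CPM in control and at 118, 372 and 144 in *Gp130* ecKO. *Gp130* ecKO 2 lay among the controls, and the log2 fold change of −0.56 (standard error 0.45) was within the spread between uteri (adjusted p = 0.458 from edgeR). *Tnc*, the gene of tenascin C, a matrix protein of tissue under remodelling, had the lowest log2 fold change of the set, −2.93 (standard error 1.03, unadjusted p = 0.0234 and adjusted p = 0.147 from edgeR). It was at 27.6, 10.8 and 117 CPM in control and at 1.09, 11.7 and 7.38 in *Gp130* ecKO. The groups overlapped through control 2 and *Gp130* ecKO 2, and without control 3, the uterus with the highest value, the log2 fold change was −1.51. *Vtn*, the gene of the plasma protein vitronectin, was between 0.54 and 4.24 CPM in all uteri.

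The α chains were led by *Itga6*, whose product pairs with β4 in hemidesmosomes and with β1 as laminin receptor. Per length, its level was 75.9 ± 12.3 TPM in control and 63.1 ± 12.96 in *Gp130* ecKO (SD, n = 3). Of the 16 α chains tested, 4 were lower in CPM without overlap and 0 were higher, where 15.6% and 15.7% of all tested genes were. *Itga5*, the α chain of the fibronectin receptor α5β1 (ENSMUSG00000000555, chr15:103252713-103275270, − strand), had the lowest p of the α chains. Its CPM was 68.2, 58.2 and 54.6 in control and 18.7, 36.7 and 36.6 in *Gp130* ecKO, so that *Gp130* ecKO 1 was lowest by a wide margin. This gave a log2 fold change of −0.98 (standard error 0.28, unadjusted p = 0.00889 and adjusted p = 0.109 from edgeR). It lay between −1.12 and −0.72 when each uterus was left out in turn. The adjusted p was 0.0305 with DESeq2, 0.036 with edgeR's exact test and 0.0336 with its likelihood ratio test. In these tests the fold change stayed short of 2-fold, so that none called the gene. Without *Gp130* ecKO 1 the adjusted p was 0.246 in edgeR's quasi-likelihood test. Relative to its partner *Itgb1* in TPM, *Itga5* was at 0.0806 to 0.0860 in control and 0.0268 to 0.0525 in *Gp130* ecKO.

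*Itga7*, whose product binds laminin and is typical of muscle, was at 6.80, 8.99 and 6.20 CPM in control and at 2.35, 3.38 and 4.97 in *Gp130* ecKO. All controls lay above all *Gp130* ecKO uteri at this low level (log2 fold change −1.04, standard error 0.36, unadjusted p = 0.0227 and adjusted p = 0.145 from edgeR). *Itga1*, a collagen receptor chain of stroma, vessels and muscle, was at 57.5, 33.4 and 29.7 CPM in control and at 10.1, 28.03 and 22.9 in *Gp130* ecKO. The gap between the groups was narrow, from 28.03 to 29.7, with *Gp130* ecKO 1 lowest and control 1 highest (log2 fold change −0.98, standard error 0.41, unadjusted p = 0.0468 and adjusted p = 0.194 from edgeR). Without control 1 the log2 fold change was −0.60. Of the 75-base transcript stretches of *Itga1*, 9.85% lie opposite *Mocs2*, so that its count may hold reads of that gene. *Mocs2* was at 29.3, 29.6 and 36.5 CPM in control and 21.6, 22.6 and 29.6 in *Gp130* ecKO. *Itga2*, the collagen receptor chain also known from platelets and epithelia, was low in all uteri, at 5.91, 5.28 and 6.07 CPM in control and 3.62, 3.58 and 4.31 in *Gp130* ecKO. It was lower in each *Gp130* ecKO uterus, with a log2 fold change of −0.58 (standard error 0.28, unadjusted p = 0.0705 from edgeR).

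The remaining α chains overlapped between the groups in CPM. *Itgav*, the common partner of β1, β3, β5, β6 and β8, was at 116, 78.6 and 115 CPM in control and 105, 111 and 121 in *Gp130* ecKO, with a log2 fold change of 0.12 (standard error 0.19). *Itga3*, a laminin receptor chain of epithelia, was at 100, 49.2 and 55.7 CPM in control and 95.6, 70.1 and 70.2 in *Gp130* ecKO. *Itga6* was at 165, 156 and 190 CPM against 107, 154 and 166. None of these 3 abundant chains differed by more than the spread between uteri (adjusted p of 0.450 to 0.708 from edgeR's quasi-likelihood test). *Itga9*, a receptor chain for tenascin C and osteopontin, varied widely within each group, at 14.9, 55.5 and 29.9 CPM in control and 8.36, 57.2 and 51.9 in *Gp130* ecKO. *Itga4*, known from leukocytes, was at 3.80, 6.05 and 9.53 CPM against 1.72, 6.96 and 2.99. *Itga8* and *Itga11*, chains of mesenchymal cells, stayed between 0.47 and 8.06 CPM.

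The leukocyte α chains were weakly expressed. *Itgal*, the chain of LFA-1, was at 6.07, 7.94 and 9.67 CPM in control and 6.78, 13.7 and 4.97 in *Gp130* ecKO. *Itgam*, the CD11b chain of myeloid cells, was at 7.52, 7.06 and 14.9 CPM against 2.31, 20.1 and 4.97. Of the 75-base transcript stretches of *Itgam*, 61.6% are shared with *Gm49368*, an overlapping gene on the same strand. *Gp130* ecKO 2 was the highest of all uteri for both α chains, and for *Itgae* and *Itgax* as well, with these 2 genes between 1.25 and 13.04 CPM over all uteri. *Itgb2*, the common β chain of LFA-1 and CD11b, was also highest in *Gp130* ecKO 2 (18.9 CPM, against 4.77 to 12.4 in the others). *Itga2b*, the platelet chain, was at 7.73, 9.45 and 11.6 CPM in control and 11.1, 8.92 and 10.6 in *Gp130* ecKO. Of the 6 platelet markers, *Gp6*, *Gp9*, *Gp1ba* and *Ppbp* lay between 0 and 0.47 CPM in all uteri, while *Gp1bb* reached 1.20 and *Pf4* 5.73, both in control 3. The effective length that RSEM gave *Itga2b* was 617 to 1084 bases, far shorter than the 4107 to 4307 bases of *Itga5*, so that its level per length rests on short transcripts of the gene. Per length it was at 12.2, 17.6 and 14.8 TPM in control and 24.6, 20.2 and 21.3 in *Gp130* ecKO, higher without overlap. The effective length was 695 bases or more in control and 667 or less in *Gp130* ecKO.

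**Figure D2:**
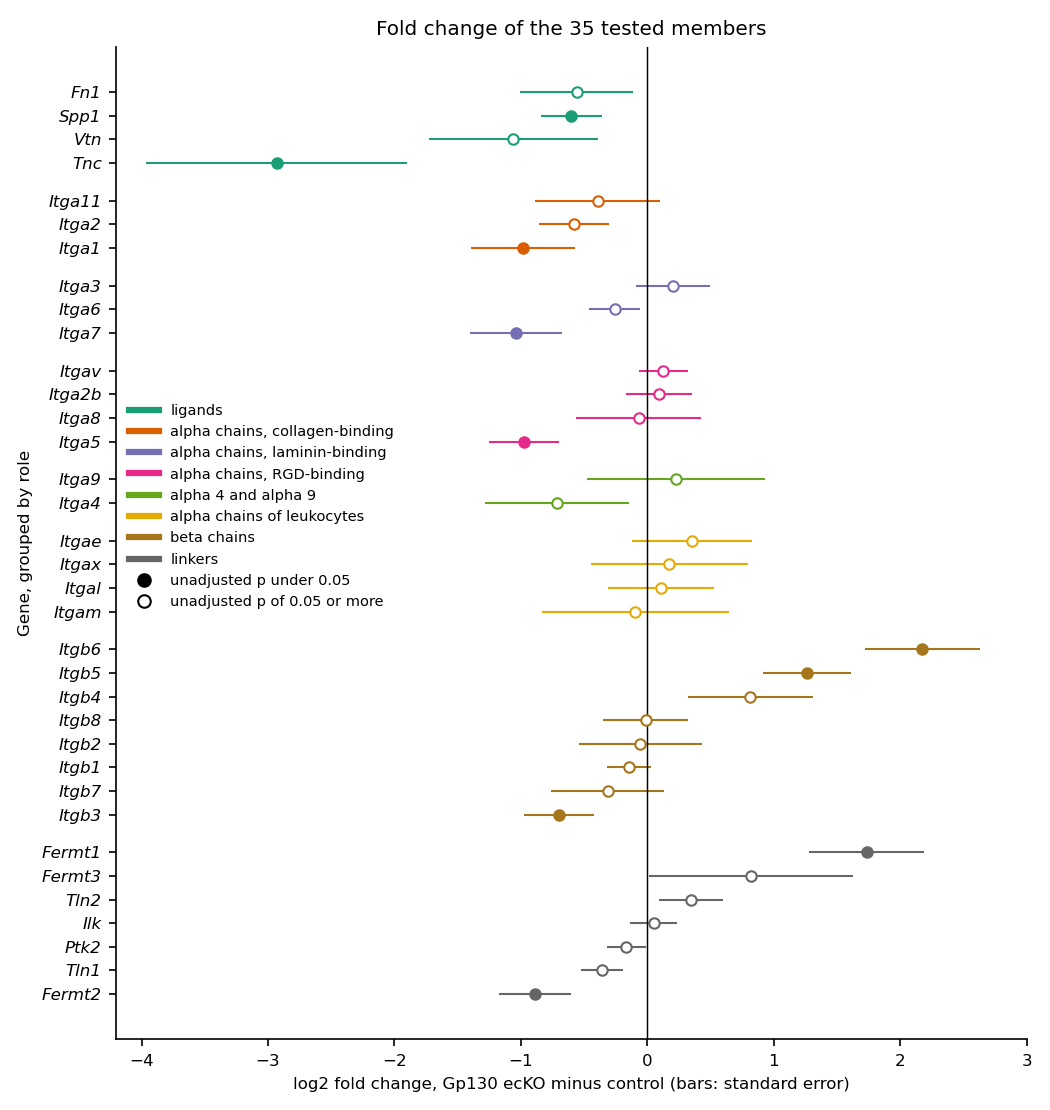
log2 fold change (*Gp130* ecKO against control, horizontal axis) of the 35 tested members grouped by role, from edgeR's quasi-likelihood fit with 3 uteri per group. Bars are 1 standard error and filled points have an unadjusted p under 0.05. All 4 ligands lie below 0, and *Itgb6* (2.18), *Fermt1* (1.74) and *Itgb5* (1.26) lie farthest above it.

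The β chains held the largest positive difference of the set. *Itgb6* (ENSMUSG00000026971, chr2:60428636-60553035, − strand) encodes β6, an epithelial chain that pairs with αv alone and is known to release active TGF-β by pulling on the RGD of its latent form, the *Tgfb1* site printed above. It was at 4.49, 15.8 and 7.13 CPM in the control uteri and at 51.4, 33.0 and 40.04 in the *Gp130* ecKO uteri. Each *Gp130* ecKO uterus lay at 33.0 or above and every control at 15.8 or below, and control 2 was the highest control. The mean was 9.15 ± 5.92 in control and 41.5 ± 9.27 in *Gp130* ecKO (SD, n = 3), from at least 107 counts per uterus. On the log2 scale the difference was 2.18 (standard error 0.46, unadjusted p = 0.00176 and adjusted p = 0.0752 from the quasi-likelihood fit of edgeR). It was called by the exact test of edgeR (adjusted p = 0.000845) and by DESeq2 (adjusted p = 0.000211), and over all alternative tests the adjusted p lay between 0.000211 and 0.226. None of the 75-base stretches of its transcripts occurred in another gene.

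*Itgb5* (ENSMUSG00000022817, chr16:33649988-33771137, + strand) encodes β5, which pairs with αv to bind vitronectin and osteopontin. Its CPM was 81.8, 76.6 and 39.4 in control and 224, 129 and 122 in *Gp130* ecKO. All *Gp130* ecKO uteri lay above all controls, with *Gp130* ecKO 1 far above the other two. The log2 difference was 1.26 (standard error 0.35, unadjusted p = 0.00744 and adjusted p = 0.103 from edgeR). Over the alternatives the adjusted p lay between 0.0138, with DESeq2, and 0.285. Of its 75-base transcript stretches 16.9% also occurred in transcripts of other genes on the same strand and 14.0% in transcripts on the opposite strand, so that part of its count depends on how RSEM divided shared reads and on the strand setting.

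*Itgb3*, the β chain that pairs with αv as receptor for vitronectin and osteopontin, went the other way. It was at 32.4, 32.5 and 43.6 CPM in control and at 15.5, 30.2 and 21.2 in *Gp130* ecKO. The groups did not overlap in CPM, with *Gp130* ecKO 2 close to the controls (log2 fold change −0.70, standard error 0.28, unadjusted p = 0.0387 and adjusted p = 0.179 from edgeR). In TPM they did, at 6.99 to 10.6 in control and 3.76 to 7.97 in *Gp130* ecKO, with *Gp130* ecKO 2 among the controls. In each uterus more *Itgb5* than *Itgb3* RNA was present per length. The ratio in TPM was 6.79, 6.94 and 2.08 in control and 35.5, 11.95 and 15.5 in *Gp130* ecKO, without overlap (exact permutation p = 0.1, two-sided, the smallest that 3 against 3 allows).

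*Itgb1*, the most abundant member, pairs with most α chains. It was at 610, 552 and 525 CPM in control and at 516, 488 and 527 in *Gp130* ecKO. The difference of −0.14 on the log2 scale (standard error 0.17) was within the spread between uteri. Its effective length was 3266 to 3315 bases in control and 3007 to 3042 in *Gp130* ecKO, without overlap, and per length the level was 222 ± 3.94 TPM in control and 232 ± 15.8 in *Gp130* ecKO. Level per length and count thus differed in direction for this gene. *Itgb4*, the chain of hemidesmosomes, was between 66.9 and 295 CPM, highest in *Gp130* ecKO 1, and *Itgb8* was between 38.3 and 83.7. *Itgb7*, a leukocyte chain, was between 2.67 and 7.35 CPM.

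The make-up of β chain RNA within a uterus does not depend on the scaling between libraries. As a share of the summed TPM of the 8 β chains, *Itgb1* took 69.6% ± 2.72 in control and 56.5% ± 8.17 in *Gp130* ecKO (SD, n = 3). *Itgb5* took 14.5%, 15.7% and 7.23% in control and 27.4%, 22.1% and 21.6% in *Gp130* ecKO. The share of *Itgb6* was 0.36%, 1.37% and 0.70% in control and 3.15%, 2.50% and 3.21% in *Gp130* ecKO. Together *Itgb5* and *Itgb6* took 13.3% ± 4.77 in control and 26.6% ± 3.37 in *Gp130* ecKO, a difference of 13.3 percentage points, while *Itgb3* took 2.62% ± 0.74 and 1.34% ± 0.54. None of these shares overlapped between the groups (exact permutation p = 0.1 for each, two-sided, the smallest possible, unadjusted over the 8 chains). *Itgb4* (6.11% to 17.4%), *Itgb2*, *Itgb7* and *Itgb8* overlapped. Relative to their common partner *Itgav*, *Itgb6* was at 0.0446 to 0.274 in control and 0.363 to 0.541 in *Gp130* ecKO, whereas *Itgb5* overlapped (0.883 to 3.13 and 2.93 to 4.70). Among the 17 α chains, the share of *Itga5* was 10.3% ± 1.14 in control and 5.67% ± 1.29 in *Gp130* ecKO, and that of *Itgav* was 12.4% ± 2.42 and 16.1% ± 2.41.

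**Figure D3:**
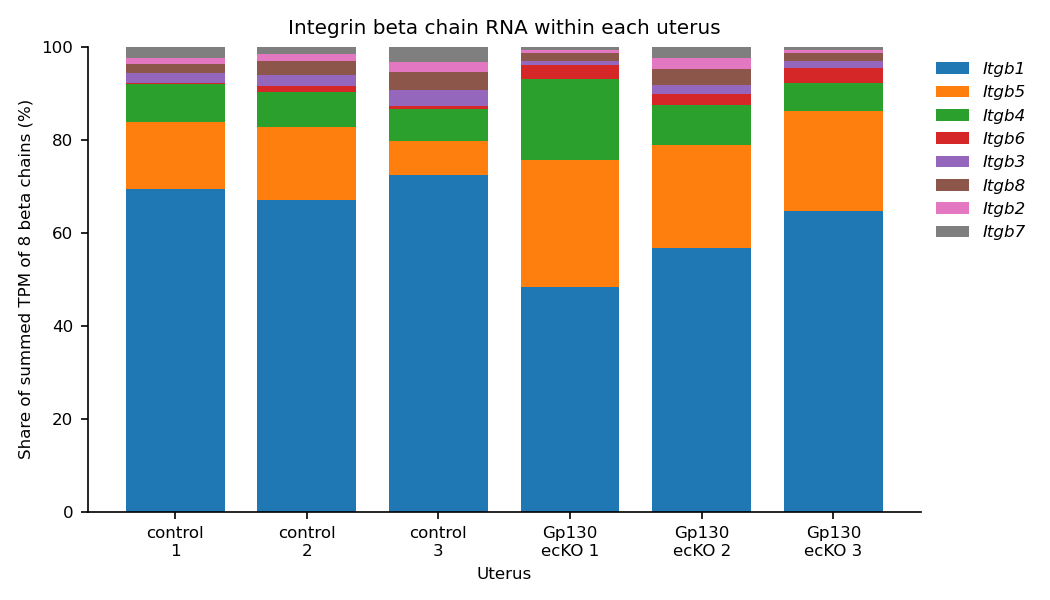
Share (%) of each of 8 integrin β chains in their summed TPM, 1 bar per uterus. *Itgb5* and *Itgb6* together take 7.93% to 17.1% in the 3 controls and 24.6% to 30.5% in the 3 *Gp130* ecKO uteri, and *Itgb1* takes the largest share in every uterus.

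Among the linkers, the kindlins differed in opposite directions. *Fermt1* (ENSMUSG00000027356, chr2:132746309-132787986, − strand) encodes kindlin-1, the kindlin of epithelia. It was at 30.1, 95.3 and 40.7 CPM in control and 250, 174 and 130 in *Gp130* ecKO. The groups were separate, and control 2 was again the highest control. The log2 difference was 1.74 (standard error 0.45, unadjusted p = 0.00584 and adjusted p = 0.0969 from edgeR). Without control 2 it was 2.42 with an adjusted p of 0.0174 in the same edgeR test, and over all alternatives the adjusted p lay between 0.00454 and 0.273. *Fermt2*, the gene of kindlin-2, the kindlin of most other cells, was at 96.6, 63.3 and 94.3 CPM in control and at 30.4, 45.8 and 61.1 in *Gp130* ecKO. Its groups did not overlap, though control 2 and *Gp130* ecKO 3 were close (log2 fold change −0.89, standard error 0.29, unadjusted p = 0.0166 and adjusted p = 0.128 from edgeR).

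The ratio of *Fermt1* to *Fermt2* in TPM was 0.22, 0.99 and 0.29 in control and 5.57, 2.62 and 1.35 in *Gp130* ecKO. *Fermt2* RNA was thus above *Fermt1* RNA in each control, barely so in control 2, and below it in each *Gp130* ecKO uterus (exact permutation p = 0.1, two-sided, the smallest possible). Of the summed TPM of the 3 kindlins, *Fermt1* took 28.2% ± 16.1 in control and 65.8% ± 8.42 in *Gp130* ecKO (SD, n = 3). *Fermt3*, the kindlin of blood cells, was between 2.32 and 27.4 CPM, highest in *Gp130* ecKO 1.

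*Tln1*, the gene of talin-1, was at 184, 160 and 137 CPM in control and 115, 134 and 127 in *Gp130* ecKO, and *Tln2*, of talin-2, was between 17.3 and 31.3. The *Tln1* groups were separate by a small gap in CPM and overlapped in TPM (log2 fold change −0.36, standard error 0.17, unadjusted p = 0.0683 from edgeR). *Ptk2*, the gene of focal adhesion kinase, was at 68.9, 70.6 and 85.3 CPM in control and 68.6, 63.8 and 67.9 in *Gp130* ecKO. Despite the lack of overlap in CPM, which TPM did not share, a log2 fold change of −0.17 (standard error 0.15) had an unadjusted p of 0.317 in edgeR. *Ilk*, the gene of integrin-linked kinase and the linker with the most RNA per length, was at 121, 127 and 98.8 CPM in control and 110, 107 and 142 in *Gp130* ecKO, with a log2 fold change of 0.05 (standard error 0.18). Per length it was at 94.4, 122 and 89.4 TPM in control and 131, 129 and 132 in *Gp130* ecKO, higher without overlap. Its effective length was 1351 to 1583 bases in control and 1168 to 1327 in *Gp130* ecKO, also without overlap. Of its 75-base stretches 43.9% lie opposite *Taf10*, and the use of strand in counting is not given in the sources used here, so that its count may hold reads of that gene.

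Some epithelial, stromal and endothelial markers were separate between the groups as well. The summed TPM of 8 epithelial markers was 1682 to 3187 in control and 4383 to 6438 in *Gp130* ecKO, without overlap. Of the 8, *Krt8*, *Krt19*, *Cdh1* and *Cldn3* were higher without overlap, while *Epcam* overlapped (log2 fold change −0.19). *Krt19* had its highest control value in control 2, as did *Itgb6* and *Fermt1*. The summed TPM of 6 stromal markers was 1115 to 1480 in control and 753 to 958 in *Gp130* ecKO, with 3 of them lower without overlap. Of 6 endothelial markers 4 were lower without overlap, with a sum of 177 to 458 in control and 115 to 182 in *Gp130* ecKO, which overlapped. Smooth muscle markers summed to 414 to 2008 in control and 361 to 2310 in *Gp130* ecKO, with 0 of 6 separated. The pan-leukocyte markers had sums of 79.5 to 133 in control and 96.3 to 181 in *Gp130* ecKO, with 1 of 5 higher without overlap, and the macrophage markers had sums of 142 to 244 and 83.5 to 206, with 1 of 6 lower. The neutrophil markers had sums of 8.30 to 19.6 in control and 2.42 to 9.48 in *Gp130* ecKO, with 3 of 5 lower. Those 3 (*S100a8*, *S100a9* and *Retnlg*) lay at only 0 to 3.12 CPM, and *Ly6g* overlapped with a log2 fold change of 1.08. The platelet markers had sums of 7.25 to 20.3 and 2.24 to 8.50, with 2 of 6 lower and *Gp6* at 0 throughout. Of all tested genes, 15.7% were higher and 15.6% lower without overlap in CPM. Markers of T and NK cells (9.75 to 33.4 over all uteri), red cells (74.0 to 729), glands (149 to 11240, highest in *Gp130* ecKO 1) and the blastocyst (0.23 to 1.62) had no separated gene.

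Set against these markers within each uterus, the members behaved unequally. *Itgb6* per 1000 TPM of the epithelial markers was 0.43, 1.41 and 1.26 in control and 2.39, 2.09 and 2.42 in *Gp130* ecKO, still without overlap, at a log2 difference of 1.33. *Itgb5* on that scale was 17.3, 16.1 and 13.1 in control and 20.7, 18.5 and 16.3 in *Gp130* ecKO, and the groups overlapped. *Fermt1* was 3.01, 8.16 and 7.18 in control and 11.5, 11.4 and 7.64 in *Gp130* ecKO, which overlapped as well. Relative to *Epcam*, all 3 genes remained separate, with log2 differences of 2.46 for *Itgb6*, 1.39 for *Itgb5* and 1.96 for *Fermt1*. *Itga6* per 1000 TPM of the epithelial markers was 25.6, 21.2 and 53.6 in control and 7.54, 14.2 and 15.4 in *Gp130* ecKO, lower without overlap at a log2 difference of −1.38, and it overlapped relative to *Epcam* (−0.25). *Itgb4* overlapped on both scales, with log2 differences of −0.37 per epithelial markers and 0.77 relative to *Epcam*, beside a log2 fold change of 0.82. That fold change of *Itgb4* lay between 0.05 and 1.19 when each uterus was left out in turn. Among the 8 epithelial markers, *Krt8* and *Cdh1* encode proteins that the study itself reported as higher in the *Gp130* ecKO epithelium. Their RNA was higher without overlap too, with log2 fold changes of 1.32 and 0.66. A ratio to the sum of the 8 markers is therefore not a ratio to the amount of epithelium alone. Per 1000 TPM of the endothelial markers, *Itga5* was 42.7 to 101 in control and 55.1 to 71.8 in *Gp130* ecKO, and *Itga1* and *Itgb3* overlapped too, with log2 differences of 0.052, 0.014 and 0.33. *Fermt2* per 1000 TPM of the stromal markers was 17.8 to 37.2 in control and 17.6 to 25.9 in *Gp130* ecKO. On the stromal scale *Itga5*, *Itga1* and *Itgb3* overlapped too, as did *Itga7* per TPM of the smooth muscle markers. The part of cell composition in these differences was not tested.

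**Figure D4:**
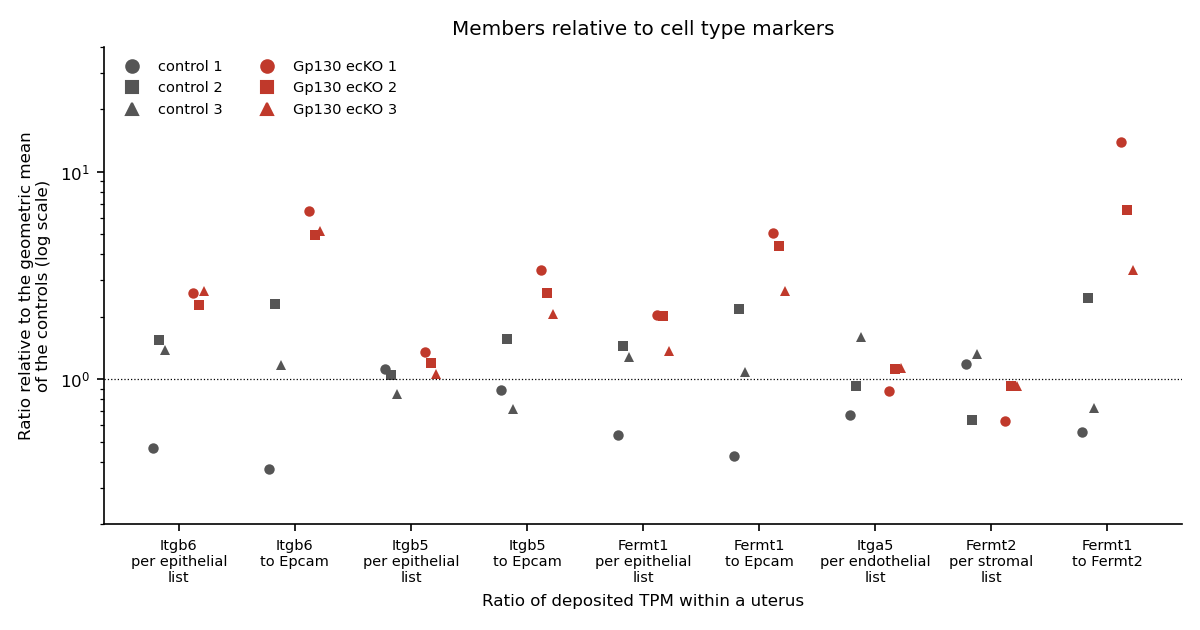
Ratios of deposited TPM within each uterus, divided by the geometric mean of the 3 controls (log scale). Each point is 1 uterus, control in grey and *Gp130* ecKO in red, and the marker shape gives the uterus number. *Itgb6* is separate on both scales, *Itgb5* and *Fermt1* are separate only relative to *Epcam*, and *Itga5* per endothelial markers and *Fermt2* per stromal markers overlap, while the ratio of *Fermt1* to *Fermt2* is separate.

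Around the members stood 65 other genes of integrin adhesion, 39 of the adhesion complex and 26 further ligands and counter-receptors. Of the 63 tested, 0 were called by edgeR's quasi-likelihood test. At an unadjusted p under 0.05 stood 27 (8 higher and 19 lower), where 25.0% of all tested genes did (12.1% higher and 12.9% lower). Of the pathway genes 9 were called by edgeR's exact test (7.46% of all genes), 9 by its likelihood ratio test (7.93%) and 10 by DESeq2 (9.69%). In the adhesion complex 6 of 39 genes stood higher and 5 lower at an unadjusted p under 0.05, with a median log2 fold change of −0.04. Among the other ligands 2 of 24 tested stood higher and 14 lower, with a median of −0.86. For both lists the shares over all tested genes were 12.1% higher and 12.9% lower. These ligands were counted in the same RNA in which the summed stromal markers were lower. The lists are not separate, since *Col1a1* is also a stromal marker and *Cdh1* also an epithelial marker. The part of cell composition in the ligand counts was not tested.

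Genes with a large positive fold change included *Ptk2b* and *Tns3*. *Ptk2b*, the gene of PYK2, a kinase related to focal adhesion kinase, was at 43.5, 155 and 40.7 CPM in control and 273, 282 and 191 in *Gp130* ecKO (log2 fold change 1.64, standard error 0.52, adjusted p = 0.124 from edgeR). *Tns3*, of the adaptor tensin-3, was at 109, 167 and 107 CPM against 323, 277 and 198 (log2 fold change 1.06, standard error 0.26). Both genes separated the groups, and control 2 was the highest control for each.

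The lower genes with the largest fold change among those without overlap were *Npnt*, *Ccn1* and *Col4a1*. *Npnt* encodes nephronectin, the RGD ligand of α8β1 printed above. It was at 52.8, 34.1 and 38.5 CPM in control and 6.15, 13 and 15.1 in *Gp130* ecKO (log2 fold change −1.87, standard error 0.36, adjusted p = 0.0677 from edgeR). Its receptor chain *Itga8* had a log2 fold change of −0.07. *Ccn1*, a matricellular ligand of αv integrins, was at 95.3, 25.0 and 47.4 CPM against 20.9, 9.81 and 21.9 (log2 fold change −1.67, standard error 0.51, adjusted p = 0.119 from edgeR). *Col4a1*, a collagen of basement membranes, was at 512, 529 and 388 CPM against 93.4, 251 and 160 (log2 fold change −1.50, standard error 0.35, adjusted p = 0.0862 from edgeR). *Tgfb1*, whose latent form αvβ6 binds, was at 28.2, 22.6 and 16.5 CPM in control and 7.46, 14.3 and 11.7 in *Gp130* ecKO, lower without overlap (log2 fold change −1.01, standard error 0.32, adjusted p = 0.122 from edgeR), and is named here after its values were seen.

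**Figure D5:**
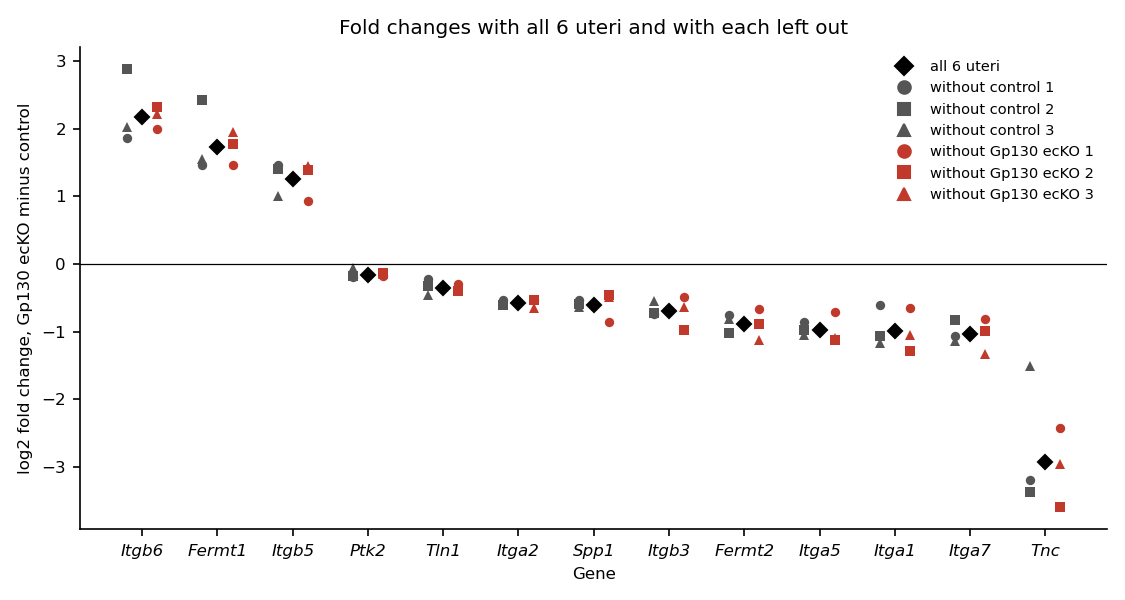
log2 fold change (vertical axis) of the 13 members with an unadjusted p under 0.05 or without overlap, with all 6 uteri (diamonds) and with each uterus left out (grey for a control, red for a *Gp130* ecKO uterus). The direction stays the same for all 13, *Itgb6* and *Fermt1* are highest without control 2 (2.88 and 2.42), and *Tnc* moves to −1.51 without control 3.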

How the data were processed

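Strand-specific poly(A) libraries of uterus RNA were read by the authors as single reads of 75 bases. Per the methods and the submitters' processing notes, the authors trimmed the reads with fastp 0.23.2, removed ribosomal RNA reads, mapped to GRCm39 with STAR 2.7.10a and deposited for each of 6 uteri the expected count of each gene estimated by RSEM 1.3.3, which divides a read that could come from several genes between them. The authors also deposited TPM, scaled for effective length to the same sum in every library, and FPKM, scaled for effective length and mapped reads. The annotation version and the strand setting of the counting are not given in the sources used here. After rounding of the expected counts, edgeR 4.0.16 (in R 4.3.3) served for the filter on low counts (filterByExpr), the TMM scaling and the quasi-likelihood F test between the groups. A standard error is the fold change on the log2 scale over the square root of its F value. DESeq2 1.42.0, other edgeR tests, RLE and upper quartile scaling, other filters, unrounded counts, pseudocounts of 0.1 and 2, a replicate block and each uterus left out were alternatives. Levels between genes and shares were compared in TPM, and single values with an exact two-sided permutation test. Values in every uterus are given for members with an unadjusted p under 0.05, without overlap or among the 2 with the highest mean TPM of their role. The other members are given by ranges. Of the other pathway genes, those named are the 3 higher and 3 lower genes of largest fold change that had no overlap, an unadjusted p under 0.05 and a mean CPM of 1 or more, and 1 of the higher genes is not reported here. The members and lists were chosen with earlier results of these data known, and the ratios to markers were chosen after seeing the data. GENCODE M39 (GRCm39) gave symbols, coordinates and sequences and matched 56017 of 56748 identifiers. The fits were tested on simulated data.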

Additional observations from a re-analysis of the deposited data

How the results depend on the processing

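The direction of the 13 members followed singly was the same in all 234 comparisons with another test, scaling, filter, pseudocount or uterus left out, and 12 of these brought a member past the threshold. The count of members called was 3 with DESeq2, 3 with edgeR's exact test, 4 with its likelihood ratio test (with *Tnc* as the fourth, and 7.93% of all tested genes called), and 2 at a false discovery rate under 0.1 without a fold threshold (6.47% of all). With each uterus left out, the count of members called lay between 0 and 2, the 2 being reached without control 2. In TPM, a scale added after seeing the data, 5 members were higher and 6 lower without overlap (16.7% and 12.1% of all tested genes), against 3 and 9 in CPM (15.7% and 15.6%). The pathway count was 10 with DESeq2, 9 with the exact and 9 with the likelihood ratio test, and lay between 0 and 5 with each uterus left out, again highest without control 2. Set per TPM of the endothelial markers, the log2 difference was 0.014 for *Itga1*, 0.052 for *Itga5* and 0.33 for *Itgb3*, the opposite sign of their fold change, and the cause was not tested. The sum of the *Itgb5* and *Itgb6* shares differed by 13.3 percentage points in TPM, 11.5 in CPM, and 10.7 to 15.2 with each uterus left out. Of the 35 tested members 13 changed sign in at least 1 alternative fit, none of them among the 13 followed singly. Over the whole table the calls numbered 26, against 1239 with the exact test and 1542 with DESeq2. Uteri of equal replicate number had correlations of their deviations of 0.102, 0.061 and −0.19, within the −0.297 to 0.215 of unequal numbers. With 3 uteri per group these values cannot decide whether a number marks a shared litter or day, which the labels do not state. The replicate block left 0 members called and 10 at an unadjusted p under 0.05. Upper quartile scaling moved the median of all genes to −0.11. With 3 uteri per group an exact permutation test cannot give a two-sided p below 0.1, and control 3, the shallowest, gives the least precise values for weakly expressed chains.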
